A study of Mus musculus with 51 samples.

Results

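The preadipocyte and progenitor markers described here are 10 genes taken by name: Pdgfra, Pdgfrb, Zfp423, Pi16, Dpp4, Ly6a, Cd34, Dlk1, Ebf1 and Thy1. Each symbol was matched to its Ensembl gene in a counts table of 53801 genes, and all 10 were found there. A filter on low counts kept 9 of the 10 among 17015 genes, and Dpp4 was not kept. The levels were read in 51 RNA-seq libraries. The cells, C3H/10T1/2-SAM, are mesenchymal cells of mouse origin that can be driven to form fat cells. SAM, the synergistic activation mediator, is a set of Cas9-based activators that raise transcription of the gene a guide RNA points to. PY cells received guides for Pparg and Ybx1, P cells a guide for Pparg alone, and EV cells an empty vector plasmid. Every transfection used 250 ng of plasmid, and every culture, EV included, was given 5 µM rosiglitazone, an agonist of the PPARG protein, 48 hours after transfection, at day 0 of differentiation. RNA was taken on days 0, 2 and 4. The groups held 6, 5 and 6 libraries for PY, 5, 6 and 6 for P and 5, 6 and 6 for EV on days 0, 2 and 4, and the libraries of a group each carry a separate experiment number out of 6. All cells are of 1 engineered line, so the genes are read here in a cultured model and not in cells sorted from fat. Day of sampling, time since transfection and time in rosiglitazone run together in this design and cannot be told apart.

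Fat cells arise from mesenchymal progenitors that first commit to preadipocytes and then, once PPARG and the C/EBP factors are active, switch on the genes of lipid storage. In mouse fat depots, PDGF receptor alpha marks fibroblast-like progenitors, and cells with DPP4 and PI16 are described as an early, interstitial pool from which committed preadipocytes arise. The transcription factors ZFP423 and EBF1 act within preadipocytes and favour their differentiation, whereas DLK1, also called PREF-1, holds it back. The markers therefore stand for different steps of the path and need not move together.

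Total counts ran from 3381870 to 114566739 per library, with a median of 22366559. Both guides raised their targets: Pparg was 4.18-fold to 5.3-fold higher in P and in PY than in EV on the 3 days, and Ybx1 was 3.07-fold to 3.24-fold higher in PY than in EV. The summed level of 8 blood cell markers stayed between 1.75 and 10.4 CPM (a count divided by its TMM-scaled library size, in parts per 1e6) over the 51 libraries, and that of 8 endothelial markers between 3.98 and 49.5 CPM. Mural cell markers were high as a sum, though not each of them. Of 8 such genes 6 were kept by the filter, and 2 averaged under 1 CPM over the 51 libraries. The sum of the 8 ran from 248 to 7380 CPM with a median of 2590, against a median of 1390 CPM for the 10 markers described here. The sum of 5 neuron markers ran from 57.8 to 144 CPM and that of 4 epithelial markers from 0.503 to 15.2 CPM. Of the fat cell references, Adipoq was 99.1-fold higher in P than in EV on day 2. Libraries of experiment 4 stood apart in several markers, with the lowest Ebf1 of every group that holds one of them. Replicates within a group come from separate experiments, and p-values of the main test measure the spread between them. The same experiments supply the different groups, and only the fit with the experiment as a block uses that pairing. In bulk RNA, fewer cells that express a gene and less of its RNA per cell cannot be told apart.

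The markers differed widely in level. Per kilobase of exon, Ly6a, a glycosylphosphatidylinositol-anchored surface protein known as Sca-1, had the highest mean level, 459 CPM per kb over 51 libraries. Pdgfrb, a receptor tyrosine kinase found on mural cells and on some fat progenitors, followed with 66 CPM per kb, then Ebf1 with 31, Pdgfra with 15.3, Thy1 with 9.04 and Zfp423 with 3.83 CPM per kb. Pi16, at 0.354, Cd34, at 0.163, and Dlk1, at 0.0554 CPM per kb, were low. Dpp4, the peptidase that names the interstitial progenitor pool, had 97 counts in all 51 libraries together, was at 0 in 19 of them and never exceeded 11 counts in any 1 library, with a mean of 0.0109 CPM per kb. The ranges over the libraries overlapped between each pair of neighbours in this order. The label of progenitor thus rests in these cells on Pdgfra, Pdgfrb, Ebf1, Ly6a, Thy1 and Zfp423. Dpp4 was close to absent and Dlk1, Cd34 and Pi16 averaged 0.313, 1.19 and 2.25 CPM.

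**Figure D1:**
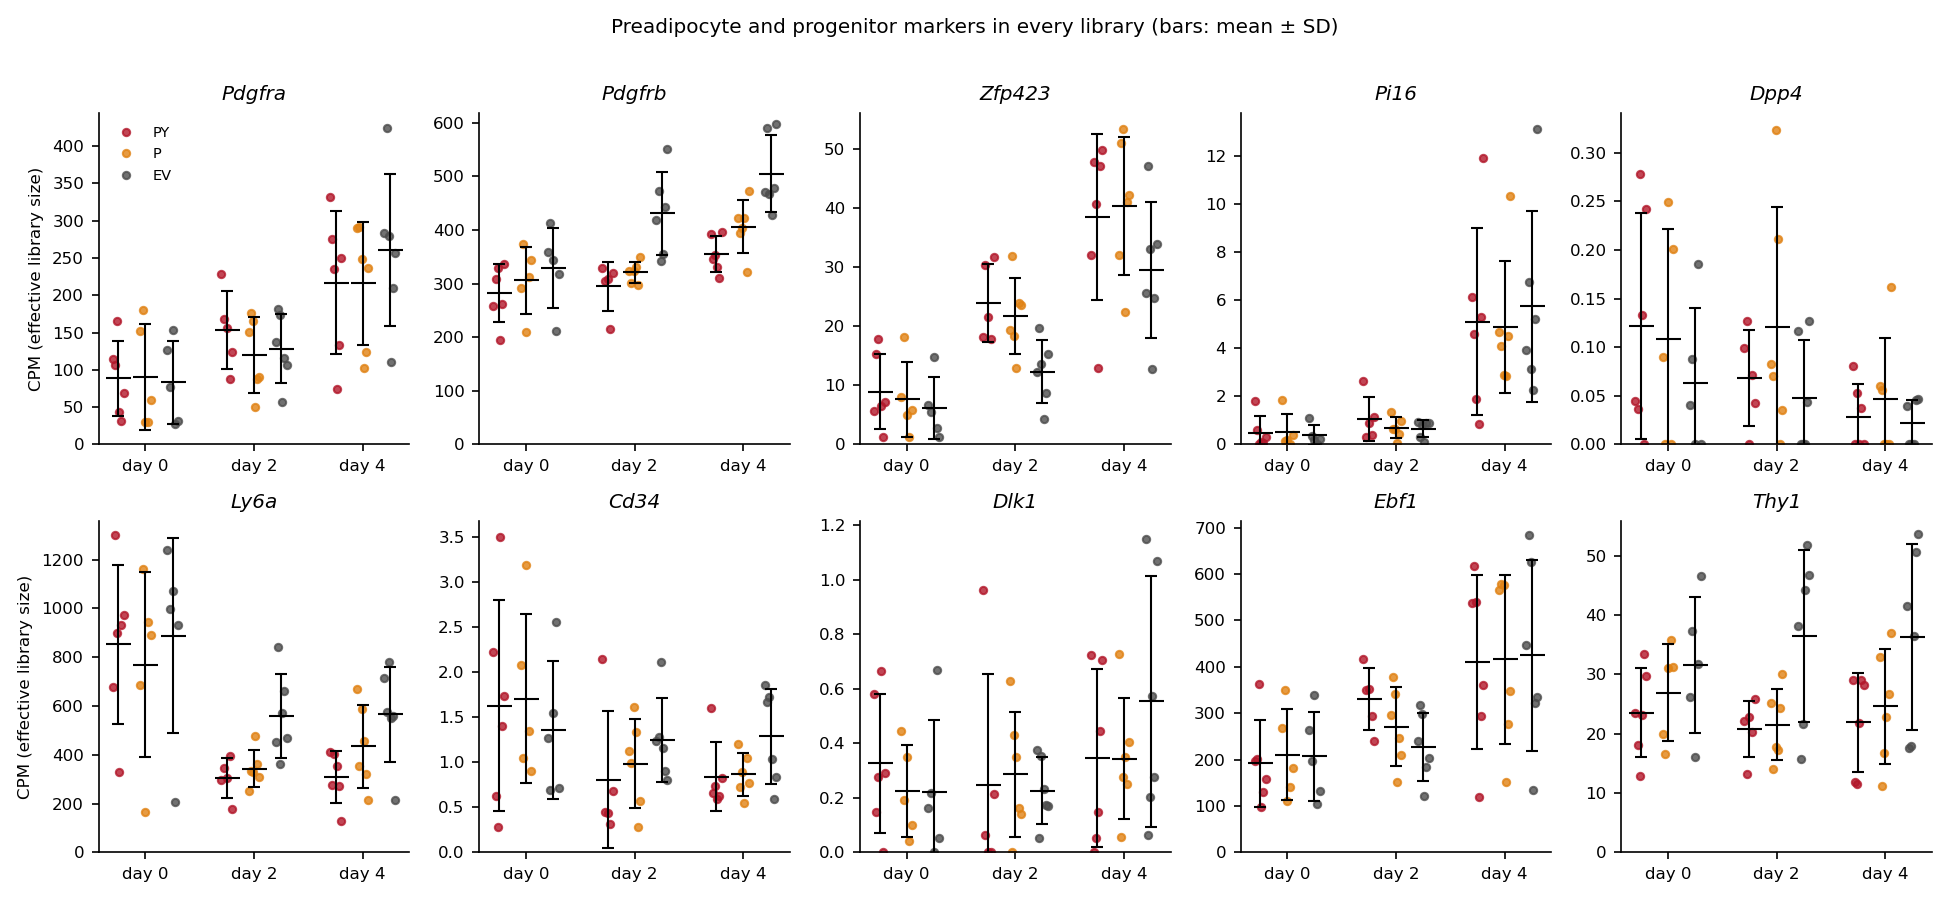
Levels in CPM (linear axes starting at 0) of the 10 markers in each of the 51 libraries, on days 0, 2 and 4, with PY, P and EV side by side on each day; points are libraries and black bars the mean ± SD of a group. Pdgfra, Zfp423, Pi16 and Ebf1 are higher on day 4 than on day 0 in all 3 transfections, Ly6a is high on day 0, and the Dpp4 axis ends below 1 CPM.

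Pdgfra, Zfp423, Pi16 and Ebf1 were higher on day 4 than on day 0 in PY, in P and in EV alike. Zfp423 was 4.47-fold higher in PY, 5.3-fold in P and 5.09-fold in EV. Pi16 was 8.65-fold, 8.32-fold and 13.3-fold higher in the same order, Pdgfra 2.46-fold, 2.39-fold and 3.15-fold, and Ebf1 2.15-fold, 1.97-fold and 2.06-fold. In PY 5 of the 9 kept members passed at an adjusted p under 0.05 (edgeR's quasi-likelihood test, Benjamini-Hochberg over 17015 genes), where 37.5% of all genes did so, 19.7% upwards and 17.8% downwards. In P 5 of 9 passed against 37.3% of all genes, and in EV 5 of 9 against 30% of all genes. All calls in P and in EV were upwards, where 18.7% and 15.1% of all genes passed upwards. Downward calls among the members came only from Ly6a in PY in these 3 comparisons.

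Pdgfra encodes the alpha receptor for platelet-derived growth factors and is the usual surface marker of fat progenitors. The gene lies on chromosome 5, at 75152292 to 75198215 of GRCm38 on the plus strand. In PY it ran from 32 to 166 CPM on day 0 with a median of 87.9, was 228, 168, 156, 87.5 and 124 CPM in the 5 libraries of day 2, and ran from 74.3 to 332 CPM on day 4 with a median of 242. In P the day 0 libraries had 152, 180, 29.6, 30.5 and 59.2 CPM, day 2 ran from 50.1 to 176 with a median of 121, and day 4 from 103 to 292 with a median of 243 CPM. In EV the day 0 libraries had 127, 77, 153, 27.7 and 31.1 CPM, day 2 ran from 56.6 to 181 with a median of 127, and day 4 from 111 to 424 with a median of 268 CPM. The days overlap in every transfection because experiments differ in level, but within experiments day 4 was above day 0 in 6 of 6 for PY, 5 of 5 for P and 5 of 5 for EV. The log2 fold change of day 4 over day 0 was 1.30 ± 0.44 (SE) in PY with an adjusted p of 0.0181, 1.25 ± 0.47 in P with 0.0313, and 1.65 ± 0.48 in EV with 0.00722 by edgeR. In P the adjusted p lay between 0.0608 and 0.108 without any 1 of day 0 replicates 3, 4 and 5 and day 4 replicates 1 and 2, and in PY between 0.0542 and 0.0577 without day 0 replicate 4 or 5. The EV call was lost without experiment 2 (0.0595), the P call without experiment 2, 5 or 6 (0.0787 to 0.125) and the PY call without experiment 1, 2 or 6 (0.0515 to 0.0761). With the experiment as a block, Pdgfra was also higher on day 2 than on day 0 in PY (adjusted p = 0.00899) and EV (0.00314), which it was not without the block (0.216 and 0.452). It shares exonic sequence with Gm42802 and Gm42803 on the opposite strand, and although the library kit marks strand, the strand setting of the counting is not given in the sources used here.

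Zfp423 encodes a zinc finger transcription factor that, in mouse fibroblasts, marks and promotes commitment to the preadipocyte state. The gene spans 87661810 to 87959595 on the minus strand of chromosome 8. In PY it ran from 1.3 to 17.8 CPM on day 0 with a median of 6.83, was 18.2, 30.3, 21.5, 17.8 and 31.7 CPM in the day 2 libraries, and ran from 13 to 49.7 CPM on day 4 with a median of 43.8. In P the day 0 libraries had 7.99, 18.1, 4.96, 1.18 and 5.88 CPM, day 2 ran from 12.9 to 31.9 with a median of 21.5, and day 4 from 22.4 to 53.4 with a median of 41.5 CPM. In EV the day 0 libraries had 6.67, 5.46, 14.7, 2.78 and 1.28 CPM, day 2 ran from 4.31 to 19.6 with a median of 12.9, and day 4 from 12.7 to 47 with a median of 29.3 CPM. Every P library of day 4 was above every P library of day 0, while in PY and EV the lowest day 4 library, from experiment 4 in both, fell among those of day 0. The log2 fold change of day 4 over day 0 was 2.16 ± 0.47 (SE) in PY, 2.41 ± 0.50 in P and 2.35 ± 0.52 in EV, with adjusted p of 0.000342, 0.000215 and 0.00063 by edgeR, and the call held in each transfection whichever library was left out. By day 2 Zfp423 had already risen 2.79-fold in PY (adjusted p = 0.0221) and 2.85-fold in P (0.0302), in 5 of 5 experiments each. In EV it was 2.12-fold higher on day 2, in 4 of 5 experiments, and did not pass (adjusted p = 0.185) except with the experiment as a block (0.0274). The day 2 call is less secure than that of day 4. In PY the adjusted p lay between 0.0513 and 0.0621 without any 1 of day 0 replicates 1 and 5 and day 2 replicates 2 and 5. In P it lay between 0.0515 and 0.105 without any 1 of day 0 replicates 1, 3, 4 and 5 and day 2 replicates 2 and 5, and the fold was 4.28 without day 0 replicate 2. Leaving out experiment 1, 5 or 6 gave 0.051 to 0.119 in PY, and experiment 1, 2, 5 or 6 gave 0.0804 to 0.14 in P. In EV it passed without day 0 replicate 3 (0.0433).

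The stretches before the starts of Pdgfra and Zfp423 are shown because both markers rose by day 4 in all 3 transfections and the window before their first RefSeq start overlaps no annotated exon. A second start of Zfp423 and one of Ebf1 also have such windows, which are not shown; that of Zfp423 holds 1 GC box and 64.8% G and C, and that of Ebf1 none of the motifs searched for and 52% G and C. They are the 250 bases before the RefSeq start on GRCm38.p6, 5′ to 3′ on the gene's strand, at chr5:75152001-75152250 on the plus strand and chr8:87959596-87959845 on the minus strand. The Pdgfra window ends at 75152250, ahead of the gene start at 75152292 given above. Bases just after the RefSeq start were not found in an annotated transcript of the gene for the Pdgfra window. The same was true of the Ebf1 window without exons, whereas for both Zfp423 windows such bases were found. Capitals mark matches to the letters GGGCGG, the GC box.
Pdgfra: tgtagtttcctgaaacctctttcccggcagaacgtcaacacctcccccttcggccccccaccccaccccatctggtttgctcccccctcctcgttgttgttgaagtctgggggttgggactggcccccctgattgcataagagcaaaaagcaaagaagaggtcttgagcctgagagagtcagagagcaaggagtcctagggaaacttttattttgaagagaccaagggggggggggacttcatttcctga
Zfp423: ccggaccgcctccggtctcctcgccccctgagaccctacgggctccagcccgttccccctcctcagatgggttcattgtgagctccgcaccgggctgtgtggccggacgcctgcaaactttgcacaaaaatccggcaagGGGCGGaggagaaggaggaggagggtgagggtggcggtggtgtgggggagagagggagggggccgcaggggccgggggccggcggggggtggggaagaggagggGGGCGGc
The Zfp423 window holds 2 GC boxes and 71.6% G and C, and the Pdgfra window none and 54.4%. Among 32851 windows of the same length, 32.7% hold a GC box on either strand. The other motifs searched for on both strands were found in neither window: the strict direct repeat bound by PPARG with RXR, present in 0.0335% of windows, a looser form that also matches the strict one, in 0.338%, the EBF motif in 0.779%, TTGCNNCAA of C/EBP in 1.74%, CCAAT in 33.8%, TATAAA in 12.4%, TGANTCA of AP-1 in 6.75%, the interferon response element in 2.98%, TTCNNNGAA of STAT factors in 7.02% and CACGTG in 6.02%. Windows were matched for 7 of the 10 markers, and those of Pdgfrb, Ly6a and Thy1 are not shown. A match or its absence describes these letters in these bases only.

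Pi16 encodes a secreted protein of the CAP family that marks adventitial and interstitial fibroblasts in mouse tissue. Its level was low throughout, and it shares exonic sequence with the antisense gene AC162182.1, so its counts are uncertain to that extent. In PY it ran from 0 to 1.81 CPM on day 0 with a median of 0.189, was 2.62, 0.317, 0.877, 0.39 and 1.12 CPM in the day 2 libraries, and ran from 0.85 to 11.9 CPM on day 4 with a median of 4.94. In P the day 0 libraries had 1.85, 0.143, 0.174, 0 and 0.402 CPM, day 2 ran from 0.0703 to 1.36 with a median of 0.643, and day 4 from 2.85 to 10.3 with a median of 4.29 CPM. In EV the day 0 libraries had 1.08, 0.349, 0.194, 0.0371 and 0.205 CPM, day 2 ran from 0.0926 to 0.95 with a median of 0.842, and day 4 from 2.24 to 13.1 with a median of 4.57 CPM. All P and EV libraries of day 4 were above those of day 0 and day 2 of the same transfection. In PY the experiment 4 library of day 4, at 0.85 CPM, was within the range of the earlier days. The highest libraries were those of experiment 1 on day 0 and of experiment 6 on day 4 in each transfection that has them. The log2 fold change of day 4 over day 0 was 3.11 ± 0.74 (SE) in PY with an adjusted p of 0.000897, 3.06 ± 0.77 in P with 0.00171, and 3.73 ± 0.83 in EV with 0.000759 by edgeR. Day 0 replicate 1, of experiment 1, held these values down in each transfection: without it the fold was 20.1 in PY, 27.1 in P and 29.2 in EV. Between day 2 and day 4 Pi16 was 4.57-fold higher in PY (adjusted p = 0.362), 6.87-fold in P (0.0418) and 8.57-fold in EV (0.0713), in 5 of 5, 6 of 6 and 6 of 6 experiments. With the experiment as a block this passed in all 3 transfections, with adjusted p of 0.000692 in PY, 1.83e-05 in P and 4.3e-05 in EV. The P call was lost without any 1 of 9 libraries, day 2 replicates 1, 2, 3, 4 and 6 and day 4 replicates 2, 3, 5 and 6, with adjusted p between 0.0513 and 0.12, and without experiment 2, 3, 5 or 6 (0.0803 to 0.188). In EV it passed without day 4 replicate 4 (0.0303) or experiment 4 (0.0206).

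Ebf1 encodes an early B cell factor, a transcription factor that also acts in preadipocytes. On chromosome 11 it spans 44617317 to 45008091 on the plus strand. In PY it ran from 98.3 to 363 CPM on day 0 with a median of 178, was 417, 351, 352, 293 and 241 CPM in the day 2 libraries, and ran from 120 to 618 CPM on day 4 with a median of 449. In P the day 0 libraries had 269, 350, 111, 142 and 183 CPM, day 2 ran from 152 to 379 with a median of 272, and day 4 from 152 to 578 with a median of 457 CPM. In EV the day 0 libraries had 263, 196, 339, 105 and 132 CPM, day 2 ran from 122 to 317 with a median of 222, and day 4 from 134 to 685 with a median of 392 CPM. Day 4 was above day 0 in every experiment that has both, 6 for PY and 5 each for P and EV, and in each transfection the ranges of the days overlapped. The log2 fold change of day 4 over day 0 was 1.10 ± 0.36 (SE) in PY with an adjusted p of 0.0142, 0.98 ± 0.38 in P with 0.0399, and 1.04 ± 0.38 in EV with 0.0359 by edgeR. The PY call held whichever library was left out, and gave 0.0645 and 0.0657 without experiments 1 and 2. The adjusted p in P was between 0.0789 and 0.127 without any 1 of day 0 replicates 3, 4 and 5 and day 4 replicates 1, 2 and 3, and in EV between 0.0543 and 0.121 without any 1 of day 0 replicates 2, 4 and 5 and day 4 replicates 1, 2 and 3. Without experiment 1, 2, 5 or 6 it lay between 0.0966 and 0.108 in P and between 0.0582 and 0.172 in EV. In the experiment block fit, Ebf1 in PY also passed on day 2 against day 0 (adjusted p = 0.000438, against 0.124 without the block), and it passed without day 0 replicate 3 (0.0351).

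**Figure D2:**
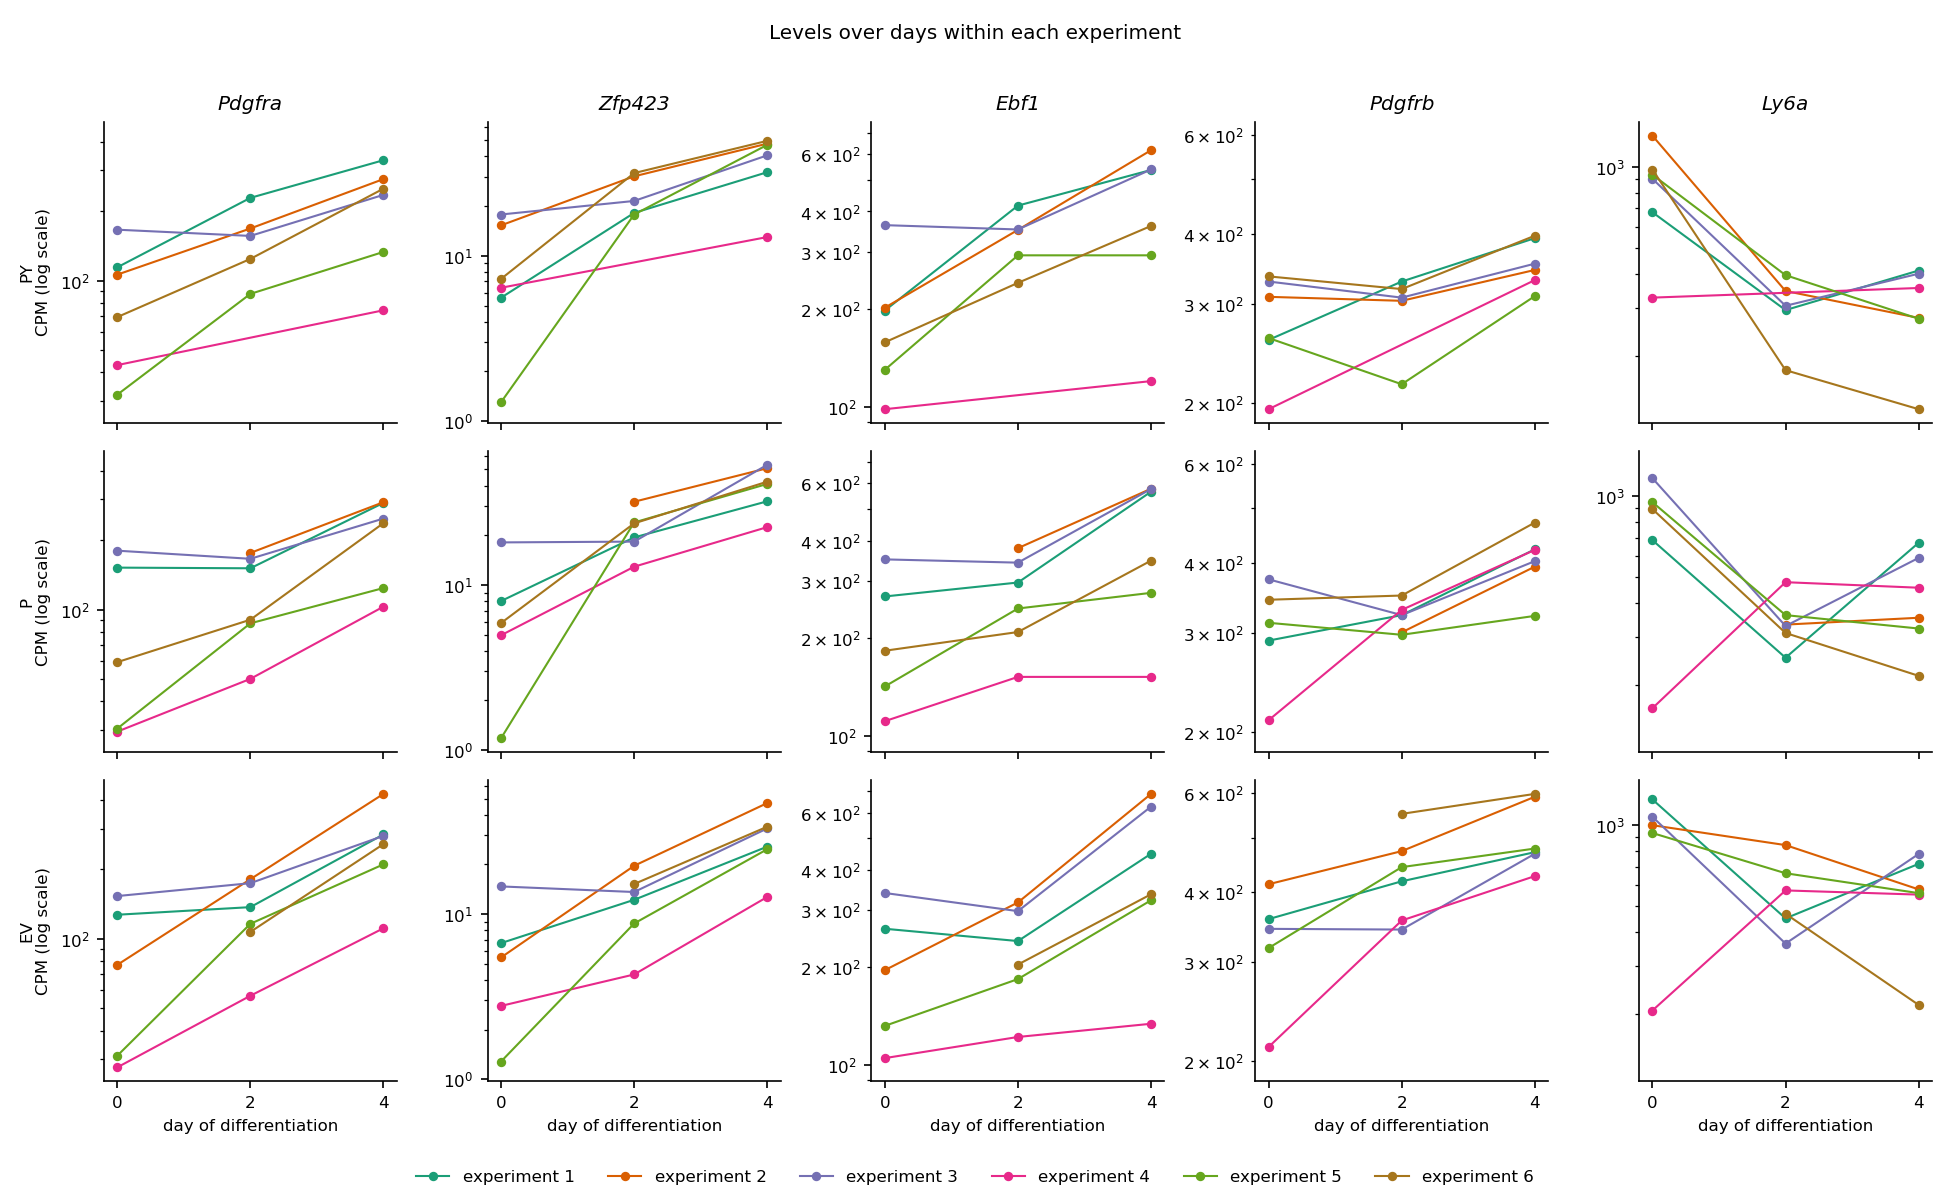
Levels in CPM (log axis, shared by the panels of a gene) of 5 markers on days 0, 2 and 4, one line per experiment, with PY in the top row, P in the middle and EV at the bottom. Pdgfra, Zfp423 and Ebf1 end above their start in every experiment that has days 0 and 4, and experiment 4 lies lowest in Ebf1. Among experiments that have days 0 and 4, Ly6a ends below its start in all but experiment 4.

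Across the 51 libraries the log2 level of Pdgfra correlated with that of Ebf1 at a Pearson r of 0.92 and with that of Zfp423 at 0.84, as a description of libraries that share days and experiments. The genes whose pattern over the 51 libraries was most like that of Pdgfra were Smarca2 (r = 0.981), Ppp1r3c (0.973) and Fam122b (0.965). Those most like Zfp423 were Ednra (0.938), Lppos (0.937) and 1700087I21Rik (0.934). For Ebf1 they were Pik3r1 (0.955), 1700020I14Rik (0.949) and Smarca2 again (0.946), and for Pi16 they were Adamts16 (0.923), Ctsf (0.918) and Igfbp4 (0.907). Pdgfrb was most like Pxdn (0.877), Mmp14 (0.872) and Sh3pxd2b (0.838), and Thy1 most like Ptgis (0.861), Eml1 (0.83) and Igsf8 (0.827). Cd34 had no gene above 0.717. Other pairs of markers gave an r of -0.06, for Ly6a and Ebf1, and of -0.46, for Ebf1 and Thy1.

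Pdgfrb, the beta receptor, was lower in PY than in EV on days 2 and 4, and higher on day 4 than on day 0 in P and in EV. In PY it ran from 195 to 336 CPM on day 0 with a median of 285, was 329, 304, 308, 216 and 319 CPM in the day 2 libraries, and ran from 310 to 397 CPM on day 4 with a median of 350. In P the day 0 libraries had 291, 374, 210, 313 and 344 CPM, day 2 ran from 298 to 350 with a median of 323, and day 4 from 322 to 472 with a median of 412 CPM. In EV the day 0 libraries had 358, 413, 344, 212 and 318 CPM, day 2 ran from 343 to 551 with a median of 430, and day 4 from 427 to 598 with a median of 475 CPM. On both later days no PY library reached the lowest EV library, and the P libraries overlapped with both.

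On day 2 Pdgfrb averaged 295 ± 45.5 CPM in PY (SD, n = 5) and 431 ± 77 CPM in EV (n = 6), a 0.686-fold level with an approximate 95% interval of 0.558 to 0.842 and an adjusted p of 0.0185 by edgeR, and it was lower in PY in 5 of 5 experiments. It was the 1 marker to pass, where 4.74% of all genes did so, 4.34% upwards and 0.394% downwards. On day 4 it averaged 355 ± 34.3 CPM in PY and 505 ± 71.3 CPM in EV (n = 6 each), a 0.703-fold level with an interval of 0.578 to 0.853 and an adjusted p of 0.0123, lower in 6 of 6 experiments. Again it was the 1 marker to pass, against 7.83% of all genes, 7.03% upwards and 0.793% downwards. In P no call was made: Pdgfrb was 0.745-fold of EV on day 2 (adjusted p = 0.103, 0.0128 with the experiment as a block, and 0.0199 without experiment 4) and 0.803-fold on day 4 (0.275), lower in 6 of 6 experiments on both days. The difference of PY from P was 0.92-fold on day 2 (interval 0.751 to 1.13) and 0.875-fold on day 4 (interval 0.721 to 1.06), with an adjusted p of 1 both times. Whether the difference of PY from EV changed with the day was tested too, and the change from day 0 was 0.802-fold by day 2 (adjusted p = 0.936) and 0.822-fold by day 4 (0.908). With the experiment as a block in edgeR, the adjusted p of PY against EV was 0.000319 on day 2 and 0.000583 on day 4. Leaving out any 1 library or experiment kept the log2 fold change between -0.606 and -0.449 on day 2. On day 4 it stayed between -0.565 and -0.437. The calls without the block were lost without some single libraries. Their adjusted p lay between 0.0827 and 0.138 on day 2 without PY replicate 4 or EV replicate 6. It lay between 0.0575 and 0.0657 on day 4 without PY replicate 5 or EV replicate 2. With no filter on low counts it was 0.0673 on day 2 and 0.0818 on day 4, with only the libraries of PY and EV on day 2 fitted it was 0.0978, and it also missed the threshold without experiment 1, 2, 5 or 6 on day 2 (0.0505 to 0.268) and without experiment 2, 3, 5 or 6 on day 4 (0.0632 to 0.101).

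Within transfections, Pdgfrb was 1.33-fold higher on day 4 than on day 0 in P (adjusted p = 0.0255, 5 of 5 experiments) and 1.54-fold higher in EV (0.00141, 5 of 5 experiments, with no overlap between the days). In PY it was 1.26-fold higher in 6 of 6 experiments with an adjusted p of 0.0527, which was 0.00555 with the experiment as a block and between 0.0193 and 0.0352 without day 0 replicate 3 or 6 or day 4 replicate 5. The P call was lost without day 0 replicate 1 or 3 or day 4 replicate 6, with adjusted p between 0.0514 and 0.132, and without experiment 1 or 4 (0.115 and 0.11). On day 2 against day 0 the fold was 1.05 in PY, 1.05 in P and 1.31 in EV, with adjusted p of 0.785, 0.822 and 0.0956, the last of which was 0.0203 with the block. Of the ligands of these receptors, Pdgfa, Pdgfb, Pdgfc and Pdgfd, all kept by the filter, 2 of 4 fell in each transfection between day 0 and day 4 and none rose without the block, whereas with the experiment as a block 3 were lower and Pdgfd was higher in each. Of all genes, 17.8%, 18.6% and 14.9% passed downwards without the block in PY, P and EV. With the block 52.2%, 51.5% and 44.7% of all genes passed in either direction. Pdgfa fell to 0.573-fold in PY, 0.559-fold in P and 0.55-fold in EV, Pdgfb fell to 0.197-fold in PY, and Pdgfc fell to 0.523-fold in P and 0.52-fold in EV. Pdgfd was 1.51-fold, 1.55-fold and 1.71-fold of day 0 in PY, P and EV, with adjusted p of 0.193, 0.177 and 0.109 without the block and of 0.0104, 0.00302 and 0.000744 with it. None of the 4 ligands differed between PY or P and EV on any day in edgeR's test without a block or with it.

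Thy1, the anchored surface glycoprotein also called CD90, passed between days in no transfection. Its level in P and PY was below that in EV on days 2 and 4 by a margin that passed only with the experiment as a block. On day 2 it had 22.2, 13.2, 22.8, 20.3 and 25.8 CPM in PY, ran from 14.1 to 30 with a median of 21.1 CPM in P, and ran from 15.7 to 51.7 with a median of 41.2 CPM in EV. On day 4 it ran from 11.6 to 29.1 with a median of 25 CPM in PY, from 11.2 to 37 with a median of 24.8 CPM in P, and from 17.6 to 53.7 with a median of 39 CPM in EV. The groups overlap because experiments 2 and 3 are low in EV as well. Experiment by experiment, PY was below EV in 4 of 5 on day 2 and 6 of 6 on day 4, and P was below EV in 6 of 6 on both days. The level in PY was 0.571-fold of EV on day 2 (adjusted p = 0.19, and 0.00777 with the block) and 0.607-fold on day 4 (0.183, and 0.00423). The level in P was 0.591-fold of EV on day 2 (0.279, and 0.00961) and 0.677-fold on day 4 (0.463, and 0.0442). On day 0 Thy1 averaged 23.5 ± 7.51 CPM in PY (SD, n = 6), 26.9 ± 8.18 in P (n = 5) and 31.6 ± 11.5 in EV (n = 5), with no call by either fit. Day 4 over day 0 was 0.932-fold in PY, 0.913-fold in P and 1.15-fold in EV, with adjusted p of 0.828, 0.782 and 0.686.

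**Figure D3:**
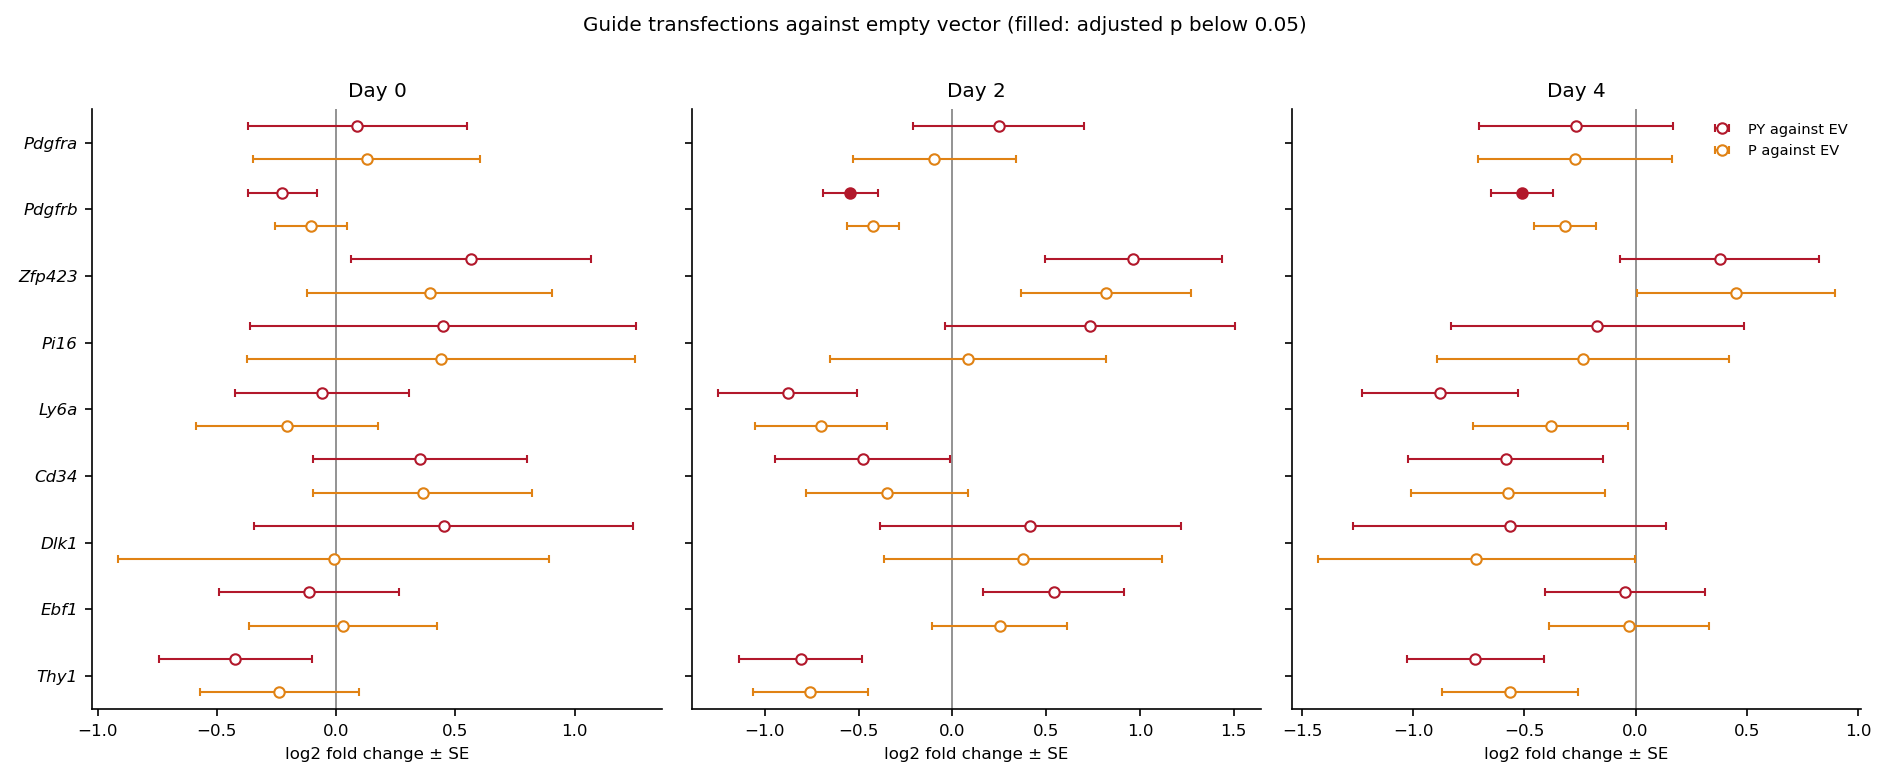
Log2 fold change with its SE of PY over EV (red) and P over EV (orange) for the 9 kept markers on days 0, 2 and 4; filled circles passed at an adjusted p under 0.05 in edgeR's test without a block. Pdgfrb in PY on days 2 and 4 is the one filled marker, Thy1 and Ly6a lie left of 0 on days 2 and 4, and Zfp423 lies right of 0 on all 3 days.

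No marker passed between P and EV on any day in edgeR's test. On day 0 1 gene of all passed (0.00588%), on day 2 2.84% (2.78% upwards and 0.0588% downwards) and on day 4 5.38% of genes (5.18% upwards and 0.2% downwards), and the counts of markers at an unadjusted p under 0.05 were 0, 2 and 1 on days 0, 2 and 4. DESeq2 called none. With the experiment as a block, 2 passed on day 2 (5.49% of all genes did) and 1 on day 4 (10.1%), Pdgfrb and Thy1 as given above. The levels of P relative to EV on day 4 were 0.828-fold for Pdgfra, 1.37-fold for Zfp423, 0.849-fold for Pi16, 0.767-fold for Ly6a, 0.672-fold for Cd34, 0.609-fold for Dlk1 and 0.979-fold for Ebf1. Zfp423 was above EV in 6 of 6 experiments on days 2 and 4 in P, and in 5 of 5 and 6 of 6 in PY, without a call in either fit. Its ratio to EV on day 2 was 1.95-fold in PY (adjusted p = 0.318, interval 1.01 to 3.78) and 1.76-fold in P (0.624, interval 0.939 to 3.31). Ebf1 was 1.45-fold of EV on day 2 in PY, in 5 of 5 experiments, with an adjusted p of 0.542, and 1.19-fold in P, in 6 of 6, with an adjusted p of 1.

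Between PY and EV on day 0 none of the 9 passed, none had an unadjusted p under 0.05 and DESeq2 called none, where 0.047% of all genes passed in edgeR. The folds of PY over EV on that day were 1.06 for Pdgfra, 0.855 for Pdgfrb, 1.48 for Zfp423, 1.36 for Pi16, 0.96 for Ly6a, 1.28 for Cd34, 1.37 for Dlk1, 0.924 for Ebf1 and 0.746 for Thy1. The folds of P over EV were 1.09 for Pdgfra, 0.93 for Pdgfrb, 1.31 for Zfp423, 1.36 for Pi16, 0.866 for Ly6a, 1.29 for Cd34, 0.993 for Dlk1, 1.02 for Ebf1 and 0.848 for Thy1. On day 4 PY stood at 0.831-fold of EV for Pdgfra, 1.3-fold for Zfp423, 0.888-fold for Pi16, 0.667-fold for Cd34, 0.675-fold for Dlk1 and 0.967-fold for Ebf1, none of which passed. On day 2 the values were 1.19-fold for Pdgfra, 1.66-fold for Pi16, 0.717-fold for Cd34 and 1.33-fold for Dlk1 in PY, and 0.935-fold, 1.06-fold, 0.786-fold and 1.3-fold for the same genes in P.

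The added Ybx1 guide did not separate PY from P in any marker. No marker passed on day 0 (0.0294% of genes did), day 2 (0.0118%) or day 4 (0.0176%) in edgeR's test or in DESeq2, none reached an unadjusted p under 0.05, and the adjusted p was 1 for all 9. On day 4 PY over P was 1-fold for Pdgfra, 0.951-fold for Zfp423, 1.05-fold for Pi16, 0.991-fold for Cd34, 1.11-fold for Dlk1, 0.988-fold for Ebf1 and 0.897-fold for Thy1. Ly6a, at 0.708-fold with an interval of 0.435 to 1.15, was lower in PY than in P in 6 of 6 experiments on day 4. Pdgfrb was lower in PY than in P in 5 of 5 experiments on day 0 and 6 of 6 on day 4. On day 0 PY over P ran between 0.879-fold for Thy1 and 1.37-fold for Dlk1, with Pdgfra, Pdgfrb, Zfp423, Pi16, Ly6a, Cd34 and Ebf1 between them. On day 2 it ran between 0.883-fold for Ly6a and 1.57-fold for Pi16, with Pdgfra, Pdgfrb, Zfp423, Cd34, Dlk1, Ebf1 and Thy1 between them.

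Ly6a fell with the day in PY, and in P on day 2. In PY it ran from 328 to 1300 CPM on day 0 with a median of 917, was 295, 347, 306, 397 and 177 CPM in the day 2 libraries, and ran from 127 to 413 CPM on day 4 with a median of 316. In P the day 0 libraries had 685, 1160, 164, 946 and 892 CPM, day 2 ran from 252 to 479 with a median of 332, and day 4 from 216 to 670 with a median of 405 CPM. In EV the day 0 libraries had 1240, 996, 1070, 206 and 932 CPM, day 2 ran from 364 to 841 with a median of 520, and day 4 from 216 to 780 with a median of 568 CPM. The low library of day 0 in each transfection, at 328, 164 and 206 CPM, came from experiment 4, and apart from it every day 0 library of PY was above every later PY library. The fall in PY was to 0.357-fold on day 2 (adjusted p = 0.00356, lower in 5 of 5 experiments) and to 0.361-fold on day 4 (0.00104, 5 of 6), and both calls held whichever library or experiment was left out. In P Ly6a fell to 0.448-fold on day 2 (adjusted p = 0.0264, 4 of 5 experiments) and stood at 0.565-fold on day 4 (0.0705, and 0.0367 with the block). In EV it stood at 0.63-fold on day 2 (0.279) and 0.638-fold on day 4 (0.178). Day 4 in P also passed without day 0 replicate 3 (0.0152) or day 4 replicate 1 (0.0397). Without experiment 4, day 4 passed in P (log2 fold change -1.12, adjusted p = 0.00415) and in EV as well (-0.92, 0.0219). The day 2 call in P was lost without any 1 of day 0 replicates 2, 4 and 5 and day 2 replicates 1, 5 and 6, with adjusted p between 0.0505 and 0.0791, and without experiment 1, 2, 3, 5 or 6, with adjusted p between 0.0621 and 0.162.

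On the later days Ly6a was lower in guide-treated cells than in EV in every experiment, yet none of these differences passed. In experiment 6 on day 4, Ly6a was at 216 CPM in both P and EV, a difference below rounding. Ly6a averaged 304 ± 81.5 CPM in PY (SD, n = 5), 344 ± 75.5 CPM in P (n = 6) and 560 ± 172 CPM in EV (n = 6) on day 2, and 308 ± 107, 435 ± 171 and 567 ± 195 CPM in the same order on day 4 (n = 6 each). PY was 0.544-fold of EV on day 2 (adjusted p = 0.217) and 0.543-fold on day 4 (0.141, interval 0.333 to 0.887). P was 0.616-fold on day 2 (0.521) and 0.767-fold on day 4 (0.761). Without experiment 4 the PY difference on day 4 passed (log2 fold change -0.93, adjusted p = 0.0356). The test of whether the fall differed between PY and EV gave a ratio of 0.567 by day 2 (adjusted p = 0.934) and 0.566 by day 4 (interval 0.279 to 1.15), so a steeper fall in PY was not called.

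Ly6a is also an interferon-inducible gene in mouse cells, and other genes of that response moved with the day. The summed level of 10 interferon response genes had a median of 9350 CPM in PY, 7500 in P and 8930 in EV on day 0, of 2940, 3280 and 2750 on day 2 and of 2640, 2750 and 3610 on day 4. Of these 10 genes, 9 fell between day 0 and day 4 in PY, 6 in P and 6 in EV, and none rose. Of all genes, 17.8%, 18.6% and 14.9% passed downwards in PY, P and EV. With the block 10, 10 and 8 of the 10 were lower, where 4440, 4449 and 3815 of 17015 genes were. Rsad2 fell to 0.106-fold, 0.181-fold and 0.185-fold in PY, P and EV, and Ifit1 to 0.234-fold, 0.321-fold and 0.36-fold. Across the 51 libraries the log2 level of Ly6a correlated with the log2 of that sum at r = 0.7 and with the sum of 10 fat cell genes at r = -0.56. The genes most like Ly6a were Ly6e (r = 0.88), Psmb8, an immunoproteasome subunit (0.866), and Ly6c1 (0.853). Ly6e fell to 0.498-fold and Ly6c1 to 0.408-fold in PY between day 0 and day 4. In experiment 4 the interferon sum on day 0 was 7620 CPM in PY, 5990 in P and 7290 in EV. In P and EV these were the lowest sums of that day, with 6070 and 8460 next, and in PY experiment 6 was lower at 4750 CPM with 975 CPM of Ly6a. The part of the interferon response in the fall of Ly6a was not tested. Ly6a has near-identical neighbours on chromosome 15, and how reads mapping to several of them were counted is not given in the sources used here.

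**Figure D4:**
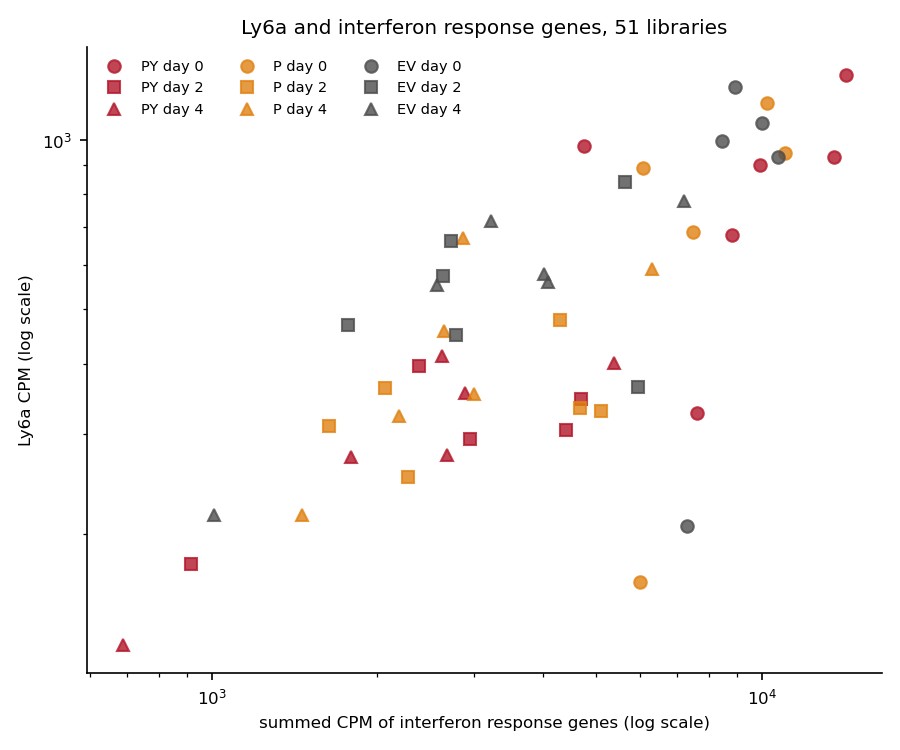
Level of Ly6a in CPM against the summed CPM of 10 interferon response genes (both on log axes) in the 51 libraries, coloured by transfection, with circles for day 0, squares for day 2 and triangles for day 4. Most day 0 libraries sit at the upper right, and the 3 of experiment 4 sit lower, at 328 CPM of Ly6a in PY, 164 in P and 206 in EV.

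Cd34, a sialomucin of progenitor and endothelial surfaces, was detected in every library but at 0.278 to 3.51 CPM. On day 4 it averaged 0.842 ± 0.384 CPM in PY (SD, n = 6), 0.866 ± 0.239 in P (n = 6) and 1.29 ± 0.53 in EV (n = 6), and on day 0 1.63 ± 1.17 in PY (n = 6), 1.71 ± 0.941 in P (n = 5) and 1.36 ± 0.764 in EV (n = 5). Day 4 over day 0 was 0.496-fold in PY (adjusted p = 0.0616, and 0.0184 with the experiment as a block), 0.496-fold in P (0.0674) and 0.949-fold in EV (0.925). Without any 1 of day 0 replicates 2 and 3 and day 4 replicate 1 the PY difference passed (0.0284, 0.0364 and 0.025), as it did without experiment 1 (0.0441), and in P it passed without day 0 replicate 2 or 5 (0.0463 and 0.0465) and with only the 2 groups compared (0.0457). Day 2 over day 0 in PY was 0.512-fold (0.131), and without PY day 2 replicate 1, the highest library of that group, the log2 fold change of -0.97 became -1.83 and passed (0.00789), as it did without experiment 1 (-1.76, 0.0235). The highest day 0 library of PY, of P and of EV was that of experiment 4, at 3.51, 3.19 and 2.56 CPM, the experiment in which Ly6a was lowest that day. Cd34, Pi16 and Dpp4 share exonic sequence with antisense genes (Gm16897, AC162182.1 and Gm13561), so their low counts carry the uncertainty over strand as well.

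Dlk1, the membrane protein that restrains adipogenesis, stayed near the floor on every day. It had 481 counts over the 51 libraries, was at 0 in 6 of them and reached 54 counts at most. The group means ran from 0.22 to 0.555 CPM, the highest being 0.555 ± 0.46 CPM in EV on day 4 (SD, n = 6), against 0.22 ± 0.265 CPM in EV on day 0 (n = 5). Day 4 over day 0 was 1.09-fold in PY, 1.35-fold in P and 2.21-fold in EV, with adjusted p of 0.915, 0.684 and 0.273. The counts leave wide errors, and the 95% interval of the fold in PY ran from 0.395 to 3.02. Dpp4, below the filter, had group means between 0.022 CPM in EV on day 4 and 0.122 CPM in PY on day 0, with 3 of 6 libraries at 0 in each group of day 4, and no fold is given for it.

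**Figure D5:**
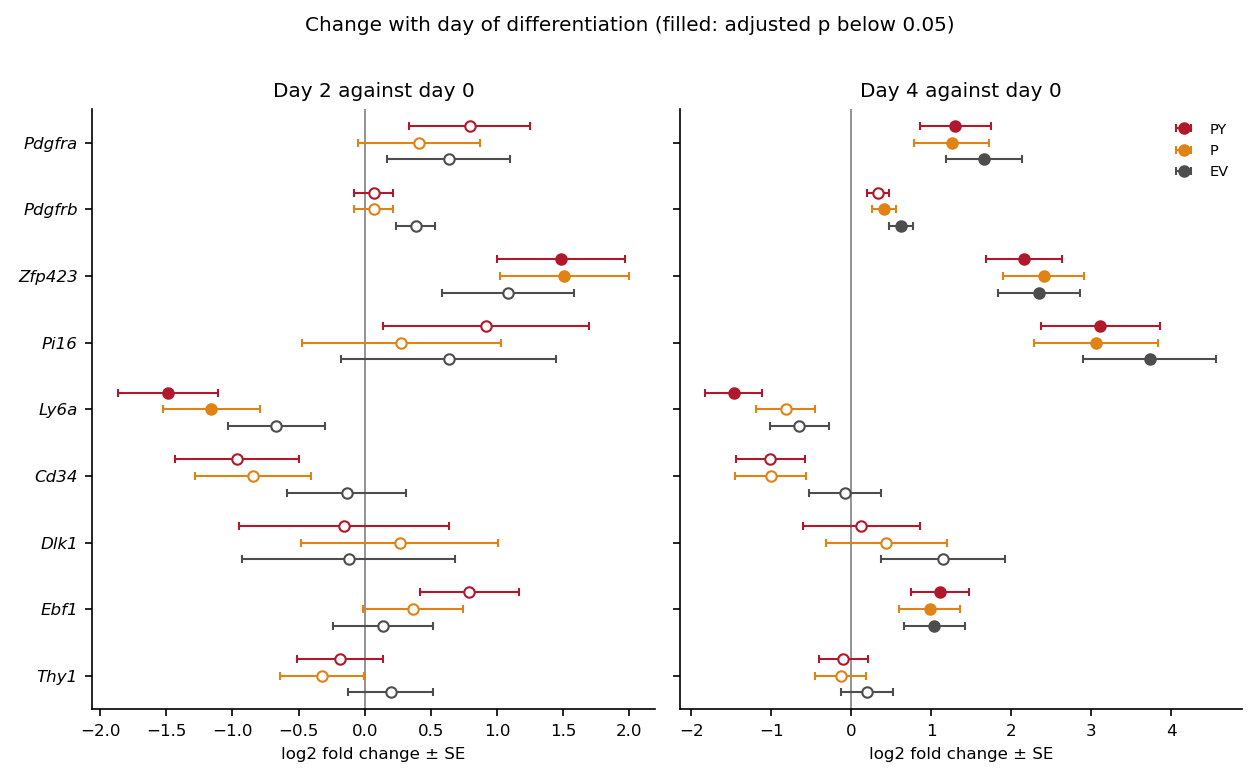
Log2 fold change with its SE of day 2 over day 0 (left) and day 4 over day 0 (right) in PY (red), P (orange) and EV (grey) for the 9 kept markers; filled circles passed at an adjusted p under 0.05 in edgeR's test without a block. On the right Pdgfra, Zfp423, Pi16 and Ebf1 are filled in all 3 transfections, Pdgfrb in P and EV, and Ly6a in PY.

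By day 2 fewer markers had moved than by day 4. In PY 2 of 9 passed against day 0, Zfp423 upwards and Ly6a downwards, where 22.8% of all genes passed, 11.4% in each direction, and in P the same pair passed, where 14% did, 6.99% upwards and 6.98% downwards. In EV none passed in edgeR or in DESeq2 while 7.29% of all genes did (2.87% upwards and 4.43% downwards), with 2 markers at an unadjusted p under 0.05. With the block 3 passed in EV, where 22% of all genes did. For the markers not given above, day 2 over day 0 was 1.89-fold for Pi16, 0.512-fold for Cd34 (with the limit given above), 0.897-fold for Dlk1 and 0.878-fold for Thy1 in PY. In P it was 1.33-fold for Pdgfra, 1.21-fold for Pi16, 0.557-fold for Cd34, 1.2-fold for Dlk1, 1.29-fold for Ebf1 and 0.799-fold for Thy1. In EV it was 1.55-fold for Pdgfra, 1.55-fold for Pi16, 0.911-fold for Cd34, 0.919-fold for Dlk1, 1.1-fold for Ebf1 and 1.15-fold for Thy1. Between day 2 and day 4 no marker passed in PY, with 1 at an unadjusted p under 0.05, none in DESeq2 and 0% of all genes called. In P only Pi16 passed (1.28% of genes, 0.552% upwards and 0.723% downwards), and in EV none did in edgeR (0.0353% of genes), with 4 at an unadjusted p under 0.05 and 1, Pi16, in DESeq2. With the block 4 passed in P, where 20.2% of all genes did, and 4 in EV, where 20.1% did. These were Pdgfra, Ebf1 and Pi16 in both, Pdgfrb in P and Zfp423 in EV.

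From day 2 to day 4 the folds in PY were 1.42 for Pdgfra, 1.2 for Pdgfrb, 1.6 for Zfp423, 1.01 for Ly6a, 0.968 for Cd34, 1.22 for Dlk1, 1.24 for Ebf1 and 1.06 for Thy1. In P they were 1.79 for Pdgfra, 1.27 for Pdgfrb, 1.86 for Zfp423, 1.26 for Ly6a, 0.892 for Cd34, 1.13 for Dlk1, 1.54 for Ebf1 and 1.14 for Thy1. In EV they were 2.03 for Pdgfra, 1.17 for Pdgfrb, 2.4 for Zfp423, 1.01 for Ly6a, 1.04 for Cd34, 2.4 for Dlk1, 1.87 for Ebf1 and 0.998 for Thy1. Pdgfra and Zfp423 were above day 2 in every experiment of PY, P and EV that has both days.

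Whether the guides altered the course of the markers was tested as a change of the difference from EV between days. No marker passed in any of these 4 tests with edgeR or DESeq2, and none had an unadjusted p under 0.05. Over all genes, 0.0588% passed for P and 0.118% for PY between day 0 and day 2, and 0.288% for P and 1.55% for PY between day 0 and day 4. The median log2 change of the 9 markers was -0.33 for P and -0.36 for PY between day 0 and day 4, against -0.06 and -0.04 over all genes tested. For PY by day 4 the ratios were 0.782 for Pdgfra, 0.878 for Zfp423, 0.651 for Pi16, 0.522 for Cd34, 0.494 for Dlk1, 1.05 for Ebf1 and 0.813 for Thy1. For P by day 4 they were 0.758 for Pdgfra, 0.863 for Pdgfrb, 1.04 for Zfp423, 0.626 for Pi16, 0.886 for Ly6a, 0.523 for Cd34, 0.613 for Dlk1, 0.96 for Ebf1 and 0.798 for Thy1. The rise of Pdgfra, Zfp423, Pi16 and Ebf1 was measured in empty vector cells as well. The sum of 10 fat cell genes had a median of 69.9 CPM on day 0 and 156 CPM on day 4 in EV. It went from 406 to 10300 CPM in PY and from 339 to 6170 CPM in P. In EV 8 of these 10 genes rose by day 4, where 15.1% of all genes passed upwards. Whether the rise of the markers depends on fat cell formation was not tested.

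Of 10 other genes of the interstitial progenitor pool, 8 were kept, and 5 of them rose between day 0 and day 4 in PY, in P and in EV. Of all genes, 19.7%, 18.7% and 15.1% passed upwards in PY, P and EV. Cd55, a complement regulator on the cell surface, rose 7.44-fold in PY, 4.01-fold in P and 6.06-fold in EV, and Efhd1 rose 2.65-fold, 2.73-fold and 3.11-fold. Anxa3 fell in all 3, to 0.454-fold, 0.405-fold and 0.455-fold. The median log2 fold change of the list was 1 in PY, 0.73 in P and 1.12 in EV, against -0.01, 0.00 and 0.03 over all genes. Between P and EV on day 2 the semaphorin Sema3c was the 1 gene of this list to pass, 1.84-fold higher in P, and without the block no gene of the list passed between PY and EV on any day. With the block Sema3c was higher in PY than in EV on day 2 (adjusted p = 0.00333) and Cd248, a stromal surface protein, lower on day 4 (0.0393).

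Of 8 genes of committed preadipocytes, all kept, 3 rose and 1 fell in PY and in P, and 2 rose in EV, between day 0 and day 4, where 37.5%, 37.3% and 30% of all genes passed in PY, P and EV. With the block 5 were higher in PY, 6 in P and 4 in EV, and 1 was lower in PY and in P. Of all genes, 52.2%, 51.5% and 44.7% passed with the block in PY, P and EV. Aoc3, an amine oxidase abundant in fat, rose 14.1-fold in PY, 14.1-fold in P and 6.74-fold in EV, and Apoe, a lipid carrier, rose 3.73-fold, 3.28-fold and 3.74-fold. Sparcl1 rose 8.07-fold in PY and 5.28-fold in P and was 4.67-fold of day 0 in EV without passing. Icam1 fell to 0.286-fold in PY and 0.425-fold in P and did not pass in EV. None of the 8 passed between PY or P and EV on any day without the block. Among 9 early adipogenic transcription factors, 1 rose and 2 fell in PY, 1 rose and 3 fell in P, and 2 rose and 2 fell in EV between day 0 and day 4. The shares of all genes that passed without the block were the 37.5%, 37.3% and 30% given above. With the block 3 of the factors were higher and 3 lower in PY, where 52.2% of all genes passed. Zfp467, a zinc finger factor, rose 3.25-fold, 3.2-fold and 2.97-fold in PY, P and EV, and Egr2 fell to 0.204-fold, 0.225-fold and 0.216-fold. Cebpb, which acts upstream of Pparg, was 1.96-fold higher in PY than in EV on day 2 and 1.81-fold higher on day 4. Of 8 genes that restrain adipogenesis, 2 fell in PY and in P and 2 rose in EV, and with the block 4 were lower and 1 higher in PY and in P and 2 lower and 3 higher in EV. Of all genes, 17.8% fell in PY, 18.6% fell in P and 15.1% rose in EV without the block. The shares that passed with it were the 52.2%, 51.5% and 44.7% given above. Gata2 fell to 0.575-fold in PY and 0.576-fold in P and Gata3 to 0.5-fold and 0.4-fold, while Sox9 rose 1.97-fold in EV. Of 8 mesenchymal surface genes, Eng, an accessory TGF-beta receptor, was lower in PY than in EV on day 2 (log2 fold change -0.82) and day 4 (-0.55), as was Pdgfrb. Of 8 mural cell markers, of which 6 were kept, the receptor Notch3 rose 3.2-fold in PY, 3.17-fold in P and 4.5-fold in EV between day 0 and day 4. In all, 3 of the kept mural markers rose in PY and in P and 1 in EV, where 19.7%, 18.7% and 15.1% of all genes passed upwards in PY, P and EV. With the block 4 were higher and 1 lower in PY and in P, and 1 was higher and 2 lower in EV. The shares of all genes that passed with it were 52.2%, 51.5% and 44.7% in PY, P and EV. No kept mural marker was lower in PY than in EV by either fit. Of 4 genes of the CD142+ cells that restrain adipogenesis, 3 were kept. Abcg1, a sterol transporter, was 17-fold higher in PY and 14-fold higher in P than in EV on day 4, and no other of them passed there. The median log2 fold change of the 3 was -0.1 in PY and 0.02 in P. The summed level of the 4 genes had a median of 153 CPM in PY, 165 in P and 148 in EV on that day. Between day 0 and day 4 F3 fell and Clec11a rose in PY and in EV. Of 4 kept endothelial markers 2 fell in PY and 3 in P and in EV between day 0 and day 4. Of all genes, 17.8%, 18.6% and 14.9% passed downwards in PY, P and EV. With the block 1 endothelial marker was higher in each transfection. The summed level of the 8 endothelial markers had a median of 17.6, 11.9 and 16.5 CPM on day 0 in PY, P and EV. On day 4 it was 29.9, 29.9 and 36.9 CPM. Of 3 kept epithelial and 2 kept neuron markers none passed between day 0 and day 4 without the block.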

How the data were processed

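Raw counts per gene were deposited for 51 libraries made with a stranded, rRNA-depleted total RNA kit, per the labels. The authors used STAR 2.5.3a, featureCounts 1.5.2 and edgeR 3.22.0 with mm10/GRCm38, per the submitters' processing notes, and the strand setting, treatment of multi-mapping reads and annotation release are not given in the sources used here. Gene IDs were matched to an annotation table, 53706 of them with a name and 95 without.

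Genes were filtered with filterByExpr over 9 groups, scaled by TMM and tested with edgeR 4.0.16 (quasi-likelihood, R 4.3.3) in 1 fit of all 51 libraries without a block, with Benjamini-Hochberg adjustment over 17015 genes and a threshold of 0.05, in 22 comparisons. SE is the absolute log2 fold change over the root of F, and intervals are approximate 95% intervals. CPM uses TMM effective library sizes, and correlations use log2(CPM + 0.5). The test was run on simulated data first. Alternatives were the experiment as a block, DESeq2 size factors, DESeq2 1.42.0, no or a stricter filter, the lowest totals left out, only the groups compared, and each library or experiment left out. Total counts per library limit the low genes most, and intervals cover the spread between libraries.

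The experiment number in the labels pairs libraries across groups. Deviations from group means correlated at a median r of 0.444 over 192 pairs of the same experiment and -0.113 over 963 pairs of different experiments. Of other lists, at most 2 passing genes per direction were named by size of change, and the 3 genes most like each marker where r was at least 0.8. The members and lists were chosen with earlier results of these data known.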

Additional observations from a re-analysis of the deposited data

Results flagged for a closer look

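In 9 of 90 groups of a marker, 1 library lay far from the rest of its group by Dixon's test, where chance gives about 1 in 20. Pdgfrb was low in PY day 2 replicate 4, at 216 CPM, against 304 to 329 CPM in the other libraries of that group, and the PY call of day 2 was lost without it. Pi16 was high in PY day 0 replicate 1 at 1.81 CPM, in P day 0 replicate 1 at 1.85 CPM and in P day 4 replicate 6 at 10.3 CPM. Cd34 was high in PY day 2 replicate 1 at 2.15 CPM, in EV day 2 replicate 3 at 2.12 CPM and in PY day 4 replicate 1 at 1.61 CPM. Dlk1 was high in PY day 2 replicate 1 at 0.961 CPM. Dpp4 was high in P day 4 replicate 6 at 0.162 CPM, which is 4 counts.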

How the results depend on the processing

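No marker called in a comparison changed direction under any alternative. Shares of all genes tested are given in brackets. With the experiment as a replicate block, 2 markers were called for P (5.49%) and 2 for PY (10.2%) against EV on day 2. On day 4 the block fit called 1 for P (10.1%) and 2 for PY (15.8%). For day 2 against day 0 it called 3 in EV (22%) and 4 in PY (35.6%). For day 4 against day 0 it called 6 in P (51.5%) and 7 in PY (52.2%). For day 4 against day 2 it called 4 in EV (20.1%), 4 in P (20.2%) and 1 in PY (5.7%). With no filter on low counts the number called was 0 for PY against EV on day 2 (1.5%) and day 4 (2.63%). It was 4 in EV (9.24%) and 2 in P (12.5%) for day 4 against day 0, and 0 in P for day 4 against day 2 (0.226%). For day 4 against day 0 in PY it was 6 with DESeq2 size factors (37.7%) and 7 without the 2 lowest totals (38.1%). With only the groups compared it was 0 for PY against EV on day 2 (3.24%) and 4 in EV for day 4 against day 0 (29.1%). In P it was then 0 for day 2 against day 0 (9.36%), 3 for day 4 against day 0 (32.7%) and 0 for day 4 against day 2 (0%). DESeq2 called 1 in EV for day 4 against day 2 (1.68%). The cause was not tested.

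Leaving out each library in turn, and each experiment (the experiments were added after seeing the data) gave 0 to 1 for P and for PY against EV on day 2 and 0 to 2 for PY on day 4. For day 2 against day 0 it gave 0 to 1 in EV, 0 to 2 in P and 1 to 3 in PY. For day 4 against day 0 it gave 3 to 6 in EV, 3 to 6 in P and 3 to 7 in PY, and for day 4 against day 2 0 to 1 in EV and in P. Depth limits Dpp4, Dlk1, Pi16 and Cd34, whose counts are few.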
